A study of Mus musculus with 6 samples.

Results

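The Notch genes described here are 10 of the 17526 genes measured in RNA from mouse small intestinal crypts, chosen by name as receptors, ligands, a modifier, a regulator and targets of the pathway that sets the absorptive or secretory choice. They are the receptors Notch1 and Notch2, the ligands Dll1, Dll4, Jag1 and Jag2, the glycosyltransferase Lfng, the ligase Dtx1, and the transcriptional repressors Hes1 and Heyl. Each of the 10 was found in the table and passed the filter on low counts, which needs 3 libraries; Heyl did so through the floxed controls, reaching the filter's level in 3 of them and in 1 knockout. Crypts are the epithelial pockets that hold intestinal stem cells, their dividing progeny and Paneth cells. RNA came from 6 libraries: 3 from mice with floxed alleles of Fpr2 (Fpr2f/f, labelled WT, here the floxed controls) and 3 from mice labelled as an intestinal epithelial knockout of Fpr2 (Fpr2VKO, here the knockouts). Fpr2 encodes a receptor for formylated peptides, and the comparison asks how its loss in the epithelium bears on stem cells and differentiation. The labels give no age, sex, strain or Cre driver, nor do they state that each library is a different mouse. A p-value here therefore sets a group difference only against the variation between libraries, which may be technical. Fpr2 itself was not analysed here, so the genotypes were not checked on the targeted gene.

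Notch receptors are membrane proteins that are activated by Delta-like or Jagged ligands on a touching cell. Binding leads to cleavage of the receptor by a metalloprotease and then by gamma-secretase, and the freed intracellular part joins the DNA-binding protein RBPJ to switch on Hes and Hey repressor genes. In the intestinal crypt, cells that receive the signal keep Hes1 high and Atoh1 low and stay stem-like or become absorptive. Cells that escape it express Atoh1, present Delta-like ligands to their neighbours and become secretory.

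Each library held between 11108511 and 16859902 estimated counts, and 12943 genes were tested. The epithelial marker Epcam stood between 1048 and 1352 CPM in the 6 libraries, while the fibroblast markers summed to at most 2.27 CPM. Libraries stood apart in 2 ways that touch the results below. T cell and intraepithelial lymphocyte markers summed to 224.5 and 184.4 CPM in floxed controls 1 and 3, against 61.8 CPM in floxed control 2 and 54.5 to 68.6 CPM in the knockouts. The clock output gene Dbp stood at 6.82 CPM in floxed control 2 and 4.46 CPM in knockout 1, against 23.8 to 44.2 CPM in the other 4 libraries. CPM are counts scaled to library size with TMM, edgeR's correction for the make-up of each library, and a gene's values are given below in the order of replicates 1, 2 and 3.

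The stretches upstream of 3 members are shown because Dll1, Dll4 and Lfng were each lower in the knockouts at an unadjusted p under 0.05 by edgeR. Dtx1 was too, but its window reaches into the annotated span of the gene and is not shown, and Heyl has no entry. Each is the 250 bases before the RefSeq start site in GRCm38.p6, the assembly that mm10 carries, written 5′ to 3′ on the strand of the gene. Capitals mark the letters GTGGGAA (or TTCCCAC on the other strand), the core of the RBPJ motif, and CACNAG (or CTNGTG), the N-box bound by Hes repressors. Dll1 lies at chr17:15376933-15377182 on the minus strand, Dll4 at chr2:119325534-119325783 on the plus strand and Lfng at chr5:140607091-140607340 on the plus strand.
Lfng: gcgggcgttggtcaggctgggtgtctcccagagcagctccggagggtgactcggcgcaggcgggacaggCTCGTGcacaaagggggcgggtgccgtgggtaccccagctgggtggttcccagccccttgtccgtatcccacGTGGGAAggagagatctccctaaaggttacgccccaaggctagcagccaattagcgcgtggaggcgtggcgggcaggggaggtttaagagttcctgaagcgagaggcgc
Dll4: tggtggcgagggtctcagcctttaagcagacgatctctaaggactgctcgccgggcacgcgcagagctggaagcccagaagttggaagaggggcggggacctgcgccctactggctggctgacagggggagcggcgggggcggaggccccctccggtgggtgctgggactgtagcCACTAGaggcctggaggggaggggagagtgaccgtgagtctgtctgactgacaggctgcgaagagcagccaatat
Dll1: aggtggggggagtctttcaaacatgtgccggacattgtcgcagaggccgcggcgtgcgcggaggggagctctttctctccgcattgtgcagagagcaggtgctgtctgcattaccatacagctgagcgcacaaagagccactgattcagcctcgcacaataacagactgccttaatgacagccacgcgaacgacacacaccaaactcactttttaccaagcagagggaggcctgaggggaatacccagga
Among the 8 members with a promoter in the RefSeq table, which hold 9 start sites, GTGGGAA was found before that of Lfng only, 109 bases upstream. The same letters occur in 5.42% of all 32851 promoter windows of this length. In the windows shown, matches to CACNAG lie 181 bases upstream for Lfng and 75 bases upstream for Dll4, and such a match occurs in 36.7% of all windows. The Dll1 window shown holds neither motif. The motifs do not overlap each other in these windows. A match here is a description of the letters and not a measured binding site.

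By edgeR's quasi-likelihood test 0 of the 10 members passed an adjusted p of 0.05 over all genes, in a comparison where 0.0155% of all genes tested passed. At an unadjusted p under 0.05, 5 members were lower in the knockouts and 0 were higher, against 9.63% and 4.09% of all genes tested, 13.7% in all. DESeq2, another count test, called 3 members lower, Lfng, Dtx1 and Heyl, and 0 higher, where it called 2.64% of all genes, with 2.35% of all genes called lower. The knockouts lay entirely below the floxed controls for 4 members and entirely above them for 1, against 10.3% and 6.99% of all genes. Heyl, which passed the filter through the floxed controls, where it is high, is in each of these counts of lower members. With a filter of 1 CPM in 3 libraries Heyl was not tested, and 4 members had an unadjusted p under 0.05 by edgeR. The median log2 fold change of the 10 members was -0.45, with 7 negative, and that of all genes tested was -0.013, with 51.9% negative. In the plot of levels by library, the floxed controls spread most, relative to their mean, for Heyl, Dtx1 and Hes1. For these genes floxed control 2 sat nearer to the knockouts than floxed controls 1 and 3 did.

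**Figure D1:**
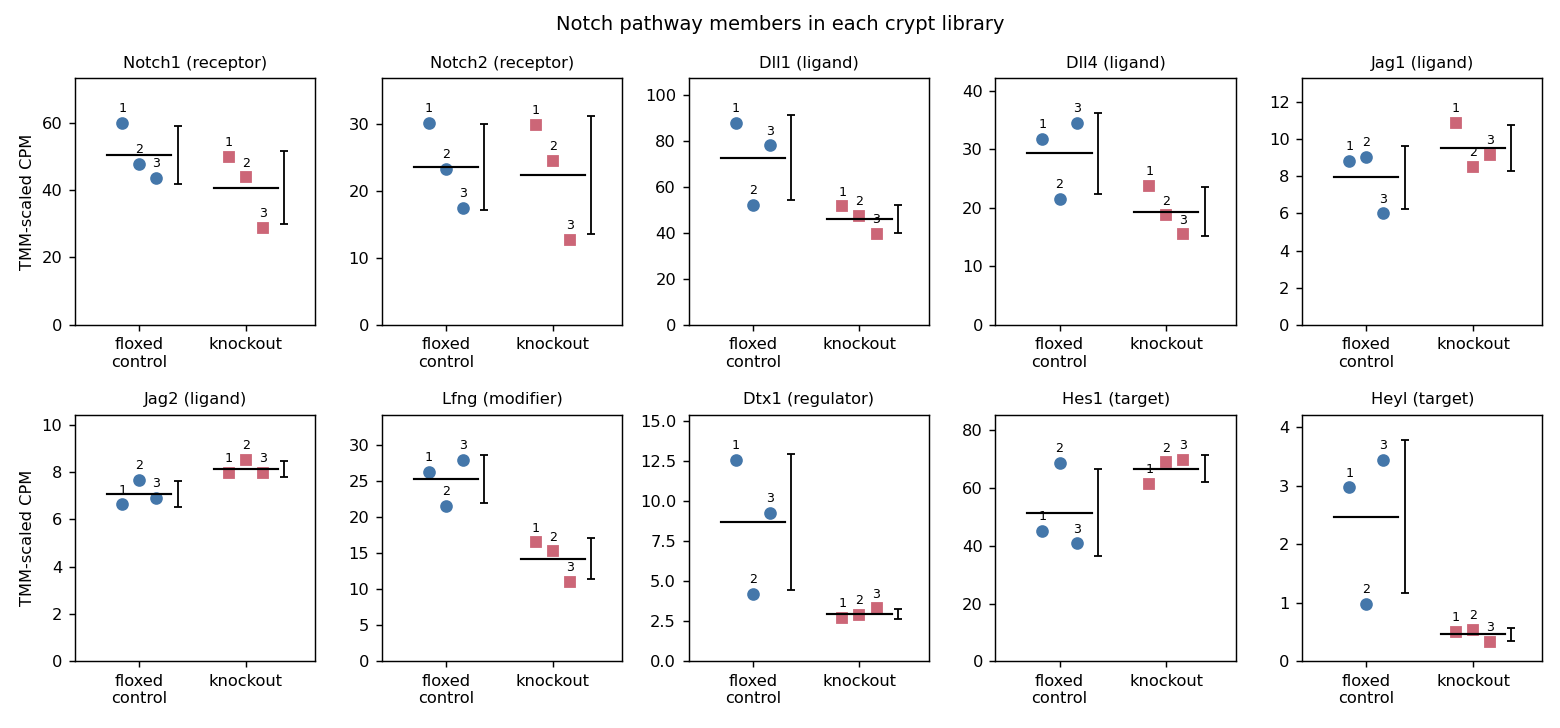
TMM-scaled CPM (y axis, linear from 0) of each Notch member in the 3 floxed control libraries (blue circles) and the 3 knockout libraries (red squares), with the replicate number above each point. Horizontal bars are group means and whiskers are 1 SD; Lfng, Dtx1, Heyl and Dll1 show no overlap with the knockouts lower, and Jag2 shows none with the knockouts higher.

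Levels were compared between genes per kilobase of the longest coding transcript in GENCODE M21, which need not be the annotation used for counting. In the floxed controls the target Hes1 had the highest mean level (35.0 CPM per kilobase), followed by the ligand Dll1 (20.3), the modifier Lfng (10.9), the ligand Dll4 (7.82) and the receptor Notch1 (5.31). Notch2 (2.25), Dtx1 (2.15), Jag1 (1.42), Jag2 (1.38) and Heyl (0.544) followed, all in CPM per kilobase. The ranges of the 3 floxed controls overlapped between Dll4 and Notch1, between Notch2 and Dtx1, between Dtx1 and Jag1 and between Jag1 and Jag2. Within each floxed control Dll4 nonetheless lay above Notch1. The order within the other pairs differed between controls. The 3 floxed controls of Hes1 all lay above those of Dll1, those of Dll1 above those of Lfng, and those of Lfng above those of Dll4. Per kilobase, the Delta-like ligands were thus above the Jagged ligands, and Notch1 was above Notch2. In the knockouts the same order held down to Notch2 at 2.13 CPM per kilobase, and Dtx1 (0.736) came after Jag1 (1.70) and Jag2 (1.60).

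Neither receptor passed over all genes by edgeR, and for both the floxed controls and knockouts overlapped. Notch1 (gene 18128; chromosome 2, 26457902 to 26503822, minus strand), the receptor with the higher level in these crypts, stood at 59.9, 47.7 and 43.5 CPM in the floxed controls and at 49.7, 43.7 and 28.6 CPM in the knockouts. The groups overlapped, and knockout 3 was the lowest library. The log2 fold change was -0.31 ± 0.22 (SE; 95% interval -0.79 to 0.17; edgeR adjusted p = 0.582). Notch2 (gene 18129; chromosome 3, 98013538 to 98150367, plus strand), which acts beside Notch1 in crypt progenitors, stood at 30.2, 23.3 and 17.4 CPM in the floxed controls and at 29.9, 24.5 and 12.7 CPM in the knockouts. The groups overlapped, again with knockout 3 lowest. Its difference was -0.081 ± 0.30 on the log2 scale (95% interval -0.74 to 0.58; edgeR adjusted p = 0.941), and it turned positive without floxed control 1 (0.16) or without knockout 3 (0.21). These intervals leave room for a receptor difference of either sign. Notch1, Dll1 and Dll4 share exon bases with annotated genes on the opposite strand, whose reads cannot be told apart here, since strand use in counting is not stated. Notch2 shares exon bases with a gene on its own strand, so those reads are uncertain too.

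The Delta-like ligands had lower means in the knockouts and the Jagged ligands had higher means, with no ligand passing over all genes by edgeR. The difference between the ligand families was not tested. Dll1 (gene 13388; chromosome 17, 15367354 to 15376932, minus strand), a ligand of secretory progenitors, stood at 88.0, 52.3 and 78.2 CPM in the floxed controls and at 51.6, 47.3 and 39.7 CPM in the knockouts. The lowest control, floxed control 2, lay just above the highest knockout. The log2 fold change was -0.66 ± 0.21 (95% interval -1.11 to -0.20), with an edgeR adjusted p of 0.202 over all genes. Dll4 (gene 54485; chromosome 2, 119325784 to 119335666, plus strand), the ligand that acts beside Dll1 and is also made by Paneth cells, stood at 31.9, 21.5 and 34.6 CPM in the floxed controls and at 23.8, 18.7 and 15.4 CPM in the knockouts. Here floxed control 2 fell among the knockouts, below knockout 1. Dll4 had a log2 fold change of -0.60 ± 0.23 (95% interval -1.10 to -0.097; edgeR adjusted p = 0.275). The ratio of Dll1 to Dll4 CPM was 2.76, 2.43 and 2.26 in the floxed controls and 2.17, 2.52 and 2.57 in the knockouts, so both ligands differed by a like factor.

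Markers of secretory cells and of crypt base stem cells also had lower sums in the knockouts. The 12 Paneth markers were all detected and summed to between 77260 and 153040 CPM in the floxed controls and between 26223 and 40215 CPM in the knockouts. The 10 enteroendocrine markers summed to 569.8 to 897 CPM against 363.9 to 492.6 CPM, and the 10 goblet markers to 13619 to 19969 CPM against 8128 to 12798 CPM. The 9 crypt base stem markers summed to 2467 to 3187 CPM against 1739 to 2456 CPM, all 9 negative with a median log2 fold change of -0.28. So the lower sums were not limited to secretory cells. All 7 tested tuft markers were negative too, but the tuft sums overlapped between groups. The enterocyte and epithelial sums also overlapped. None of these markers was at 0 in any library, and their part in the ligand values was not tested. In bulk RNA, fewer cells of a type and less RNA per cell cannot be told apart. Without floxed controls 1 and 3 the log2 differences shrank to -0.12 ± 0.21 for Dll1 and -0.093 ± 0.26 for Dll4. Without floxed control 2 and knockout 1, the libraries low in Dbp, they were -0.93 ± 0.18 and -0.95 ± 0.20, with edgeR adjusted p-values of 0.0235 and 0.0292. Both choices of libraries were made after the data were seen. Floxed controls 1 and 3 were the higher controls for both ligands. Floxed control 2 was the lowest control and knockout 1 the highest knockout, so the direction of each shift was set by the choice.

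Jag1 (gene 16449; chromosome 2, 137081451 to 137116520, minus strand), a Jagged ligand that Lfng-modified receptors respond to less well, stood at 8.82, 9.05 and 6.01 CPM in the floxed controls and at 10.9, 8.53 and 9.18 CPM in the knockouts. The groups overlapped, with floxed control 3 the lowest library. Its log2 fold change was 0.25 ± 0.22 (95% interval -0.24 to 0.75; edgeR adjusted p = 0.680). Jag2 (gene 16450; chromosome 12, 112907803 to 112929812, minus strand), the other Jagged ligand, stood at 6.64, 7.67 and 6.89 CPM in the floxed controls and at 7.96, 8.53 and 7.95 CPM in the knockouts. Each knockout lay above each floxed control by a narrow margin, and Jag2 had the smallest spread of the members, relative to its mean, in both groups. Jag2 had a log2 fold change of 0.20 ± 0.20 (95% interval -0.24 to 0.64; edgeR adjusted p = 0.713).

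Lfng and Dtx1, which act on the receptor, each had a lower level in every knockout than in every floxed control. Lfng (gene 16848; chromosome 5, 140607341 to 140615545, plus strand), a Fringe glycosyltransferase that lengthens sugars on the receptor and favours signalling by Delta-like over Jagged ligands, stood at 26.2, 21.5 and 28.0 CPM in the floxed controls. In the knockouts it stood at 16.5, 15.2 and 11.03 CPM. No library overlapped, and the gap between floxed control 2 and knockout 1 was wider than for Dll1. Lfng had a log2 fold change of -0.82 ± 0.20 (95% interval -1.27 to -0.38; edgeR adjusted p = 0.136, DESeq2 adjusted p = 0.0289). It remained at -0.53 ± 0.26 without floxed controls 1 and 3 (edgeR adjusted p = 0.655), a fit with 1 control library and so no measure of how controls vary. Among the single libraries left out, Lfng ran from -0.94 without knockout 1 to -0.66 without knockout 3.

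Dtx1 (gene 14357; chromosome 5, 120680203 to 120711867, minus strand) encodes a Deltex ubiquitin ligase that binds the intracellular part of Notch, and it is also a Notch target in lymphocytes. It stood at 12.6, 4.20 and 9.26 CPM in the floxed controls and at 2.71, 2.90 and 3.30 CPM in the knockouts. Floxed controls 1 and 3 were high, while floxed control 2 lay close above the knockouts, which differed little among themselves. Dtx1 had a log2 fold change of -1.54 ± 0.37 (95% interval -2.34 to -0.73; edgeR adjusted p = 0.130, DESeq2 adjusted p = 0.00785). It was -0.44 ± 0.37 without floxed controls 1 and 3 and -1.14 without floxed control 1 alone.

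Lymphocyte markers followed the same libraries as Dtx1. The 10 B and plasma cell markers found summed to 57.3, 11.8 and 36.9 CPM in floxed controls 1, 2 and 3 and to 14.8, 9.01 and 8.68 CPM in the knockouts. Their defining member Cd79a stood at 10.04, 0.590 and 8.47 CPM against 1.92, 1.07 and 1.57 CPM, and 1 of the 10, Ebf1, was at 0 in floxed control 2. The 11 T cell and intraepithelial lymphocyte markers had no member at 0 in any library. The genes whose centred log2 levels over the 6 libraries were nearest to those of Dtx1 were Itgb7, Gzma and Ncf1, with root-mean-square differences of 0.084, 0.14 and 0.14. Gzma is in the T cell list. Itgb7, the nearest, stood at 12.1, 3.61 and 8.17 CPM in the floxed controls and at 2.48, 3.005 and 3.08 CPM in the knockouts. The part of lymphocytes in the Dtx1 value was not tested.

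The heat map of centred levels places these markers beside the members. For Lfng the nearest genes were Csrnp1, Gna12 and Nfic (root-mean-square differences of 0.034, 0.069 and 0.073), and for Dll1 they were Hykk, Ripor2 and Ccpg1 (0.044, 0.059 and 0.069). These genes were picked for their like levels, so their log2 fold changes, between -0.93 and -0.62, follow from that choice. None of them passed over all genes by edgeR.

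**Figure D2:**
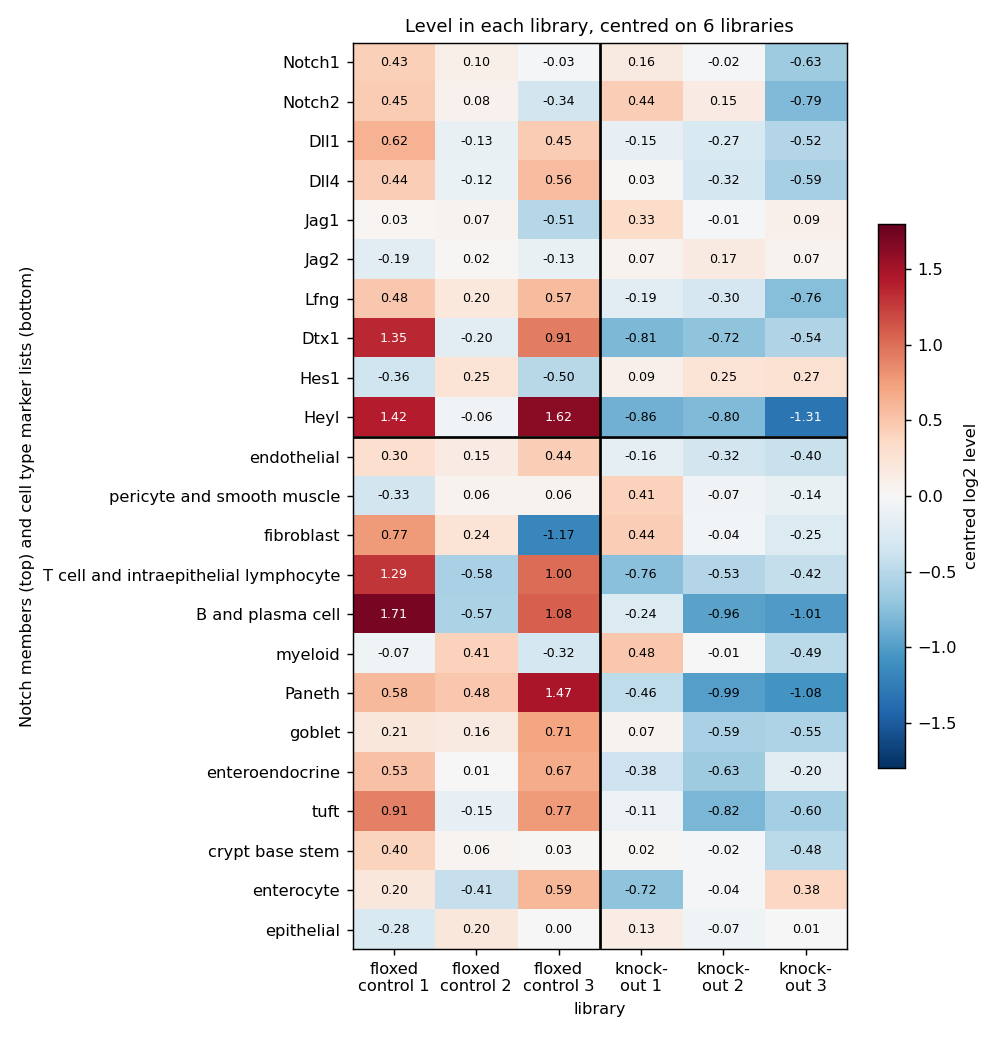
Centred log2 level (colour and printed value; red above and blue below the mean of the 6 libraries) of the 10 Notch members (top rows, log2 CPM with a prior count of 2) and of 13 cell type marker lists (bottom rows, log2 of summed CPM) in each library (columns). Dtx1 stands at 1.35, -0.20 and 0.91 in floxed controls 1, 2 and 3, beside 1.71, -0.57 and 1.08 for the B and plasma cell list.

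The targets Hes1 and Heyl had differences of opposite sign. Hes1 (gene 15205; chromosome 16, 30065357 to 30067796, plus strand), the repressor that keeps Atoh1 off in progenitors, stood at 45.0, 68.4 and 40.8 CPM in the floxed controls and at 61.3, 68.7 and 69.7 CPM in the knockouts. Floxed controls 1 and 3 were low, and floxed control 2 lay among the knockouts. The log2 fold change was 0.37 ± 0.20 (95% interval -0.074 to 0.82; edgeR adjusted p = 0.449). Without floxed controls 1 and 3 it was 0.021 ± 0.20, and without floxed control 2 it was 0.64 ± 0.16, with an edgeR adjusted p of 0.0396. Atoh1, the transcription factor of secretory differentiation, stood at 110.1, 80.2 and 109.9 CPM in the floxed controls and at 70.2, 53.5 and 41.9 CPM in the knockouts (log2 -0.86 ± 0.21; edgeR adjusted p = 0.140, DESeq2 adjusted p = 0.0183). The ratio of Hes1 to Atoh1 CPM was 0.408, 0.854 and 0.371 in the floxed controls and 0.874, 1.28 and 1.66 in the knockouts. For this ratio the groups did not overlap, by a narrow margin between floxed control 2 and knockout 1. Atoh1 alone also separated the groups and Hes1 did not, so the separation of the ratio is not a result about Hes1.

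Heyl (gene 56198; chromosome 4, 123233556 to 123249870, plus strand), a Hey-family repressor known from vascular smooth muscle, had the lowest level of the members. It had 34, 15 and 35 counts in floxed controls 1, 2 and 3 and 9, 10 and 6 counts in knockouts 1, 2 and 3. In CPM these were 2.97, 0.983 and 3.45 against 0.508, 0.537 and 0.336. No library overlapped, and floxed control 2 lay between the other controls and the knockouts. Heyl had a log2 fold change of -2.37 ± 0.52 (95% interval -3.52 to -1.23; edgeR adjusted p = 0.119, DESeq2 adjusted p = 0.00935). It was -1.02 ± 0.64 without floxed controls 1 and 3. So few counts limit the precision of the knockout level.

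Vascular markers were low in these libraries. Of the pericyte and smooth muscle list, Rgs5 was at or below 0.087 CPM in each library and the 10 markers together stood at 8.30 to 10.8 CPM in the floxed controls and 9.46 to 13.8 CPM in the knockouts, so that sum did not follow Heyl downward. Pdgfrb made up much of that sum, at 4.09 to 8.13 CPM. Of the endothelial list, Cdh5 was at 0 in all libraries but floxed control 1, and the 11 markers summed to 8.13 to 9.95 CPM against 5.54 to 6.55 CPM. Esam made up much of that sum, at 4.63 to 5.02 CPM in the floxed controls and 2.63 to 3.61 CPM in the knockouts. Tie1 and Emcn, both at low levels, had higher means in the knockouts. Pecam1, which leukocytes express too, stood at 1.75, 0.787 and 1.97 CPM in the floxed controls and at 0.564, 0.644 and 0.504 CPM in the knockouts. The part of these cells in the Heyl value was not tested. The genes nearest to Heyl over the 6 libraries, among those with an average log2 CPM of at least 1, were Nkd1, Was and Cybrd1, at root-mean-square differences of 0.23, 0.27 and 0.28.

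The choice of libraries moved each member's log2 fold change over a wider range than the change of test, scaling or filter did. Without floxed control 2, edgeR called 5 members over all genes, with Dll1, Lfng, Dtx1 and Heyl lower and Hes1 higher, where it called 7.21% of all genes. Without floxed control 2 and knockout 1 it called 6, with Dll4 lower as well, where it called 7.06% of all genes. For each of these 6 members floxed control 2 was the control nearest to the knockouts, so leaving it out widens the difference by choice. Without floxed controls 1 and 3 it called 0 members, where it called 0.09% of all genes, and 0 members had an unadjusted p under 0.05, against 7.59% of all genes. That fit has 1 control library, assumed to vary like the knockouts, so its p-values are not comparable with those of the other fits. Within the pair of floxed control 2 and knockout 1, the libraries low in Dbp, the log2 ratio of CPM was -0.021 for Dll1, -0.38 for Lfng, -0.63 for Dtx1 and -0.95 for Heyl. In that pair Dll4 was at 0.15 and Hes1 at -0.16, the opposite signs to those over all 6 libraries. The labels do not say what sets these libraries apart. With single libraries left out, the edgeR adjusted p ran from 0.0196 to 0.810 for Dll1 and from 0.0513 to 0.878 for Dll4. It ran from 0.0297 to 0.807 for Lfng and from 0.00829 to 0.807 for Dtx1. For Hes1 it ran from 0.0396 to 0.902 and for Heyl from 0.00829 to 0.805.

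**Figure D3:**
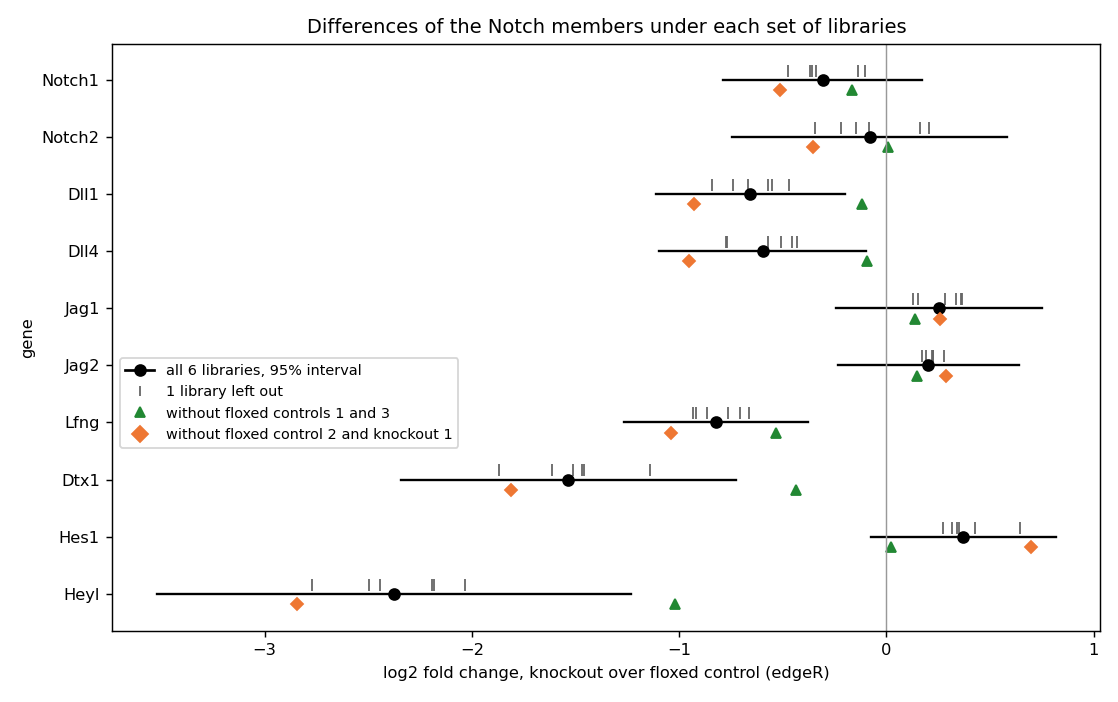
Log2 fold change of each Notch member, knockout over floxed control, by edgeR (x axis; genes on the y axis): all 6 libraries with the 95% interval (black), each library left out in turn (grey ticks), and fits without floxed controls 1 and 3 (green triangles) or without floxed control 2 and knockout 1 (orange diamonds). For Dll1, Dll4 and Hes1 the triangles lie at -0.12, -0.093 and 0.021, near 0, and the diamonds at -0.93, -0.95 and 0.70.

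Beyond the 10 members, a list of 64 further Notch pathway genes had 63 genes in the table and 55 that passed the filter. By edgeR 0 of the 55 passed over all genes. At an unadjusted p under 0.05, 6 were lower and 1 was higher, where 9.63% and 4.09% of all genes were, and DESeq2 called 1, Atoh1, where it called 2.64% of all genes. The knockouts lay entirely below the floxed controls for 8 of them and entirely above for 1, beside 10.3% and 6.99% of all genes. The counts of lower genes are near those shares. Of the 55, 42 had a negative log2 fold change, where 51.9% of all genes did, and the median was -0.15 beside -0.013 over all genes.

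Genes of receptor cleavage and of the nuclear complex had no edgeR call. Of the 9 tested cleavage genes 7 were negative, with a median of -0.14, and the gamma-secretase subunit Ncstn had a log2 fold change of -0.057 ± 0.17 (edgeR adjusted p = 0.925). Rbpj, the DNA-binding partner of Notch, stood at 33.1, 23.3 and 24.8 CPM in the floxed controls and at 26.9, 31.9 and 25.2 CPM in the knockouts. Its log2 fold change was 0.050 ± 0.19 (edgeR adjusted p = 0.942). Nrarp, a target that feeds back on the pathway, was at 0.070 ± 0.18 (edgeR adjusted p = 0.911). Of the 6 tested genes listed as targets and relatives, Nrarp was the only positive one and 5, with Atoh1 among them, were negative. Hes2, Hes7 and Hes6 were at -0.80 ± 0.39, -0.55 ± 0.38 and -0.33 ± 0.19, each with groups that overlapped. Differences between targets were not tested. The coactivator Maml3 was at -0.64 ± 0.21 on the log2 scale (edgeR adjusted p = 0.224), and of the 18 genes of the nuclear complex and corepressors 15 were negative, with a median of -0.12. Of the 10 genes of receptor trafficking and turnover 9 were negative, with a median of -0.26, and 0 had an unadjusted p under 0.05.

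Among other ligands and their handling, Dll3, a ligand that does not activate Notch in trans, stood at 3.06, 2.16 and 4.33 CPM in the floxed controls and at 1.41, 1.18 and 1.34 CPM in the knockouts. The groups did not overlap, and the log2 fold change was -1.26 ± 0.36 (edgeR adjusted p = 0.179). Neurl1a, a Neuralized ubiquitin ligase of ligands, was at 4.98, 3.28 and 5.81 CPM against 2.60, 1.88 and 1.46 CPM (log2 -1.23 ± 0.34; edgeR adjusted p = 0.167). Aph1b, a variant gamma-secretase subunit, was at 2.79, 1.51 and 4.14 CPM against 1.35, 1.29 and 0.728 CPM (log2 -1.30 ± 0.44; edgeR adjusted p = 0.230). These genes are of low level, and for each of them floxed control 2 was the lowest control. The Fringe relative Rfng, in contrast to Lfng, had a log2 fold change of 0.081 ± 0.15 (edgeR adjusted p = 0.867), a comparison of values whose difference was not tested. Notch4, a receptor best known from endothelium, stood at 22.4, 15.3 and 18.1 CPM in the floxed controls and at 13.8, 17.2 and 12.1 CPM in the knockouts (log2 -0.37 ± 0.21; edgeR adjusted p = 0.469), while Notch3 was at most 0.886 CPM and was not tested.

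**Figure D4:**
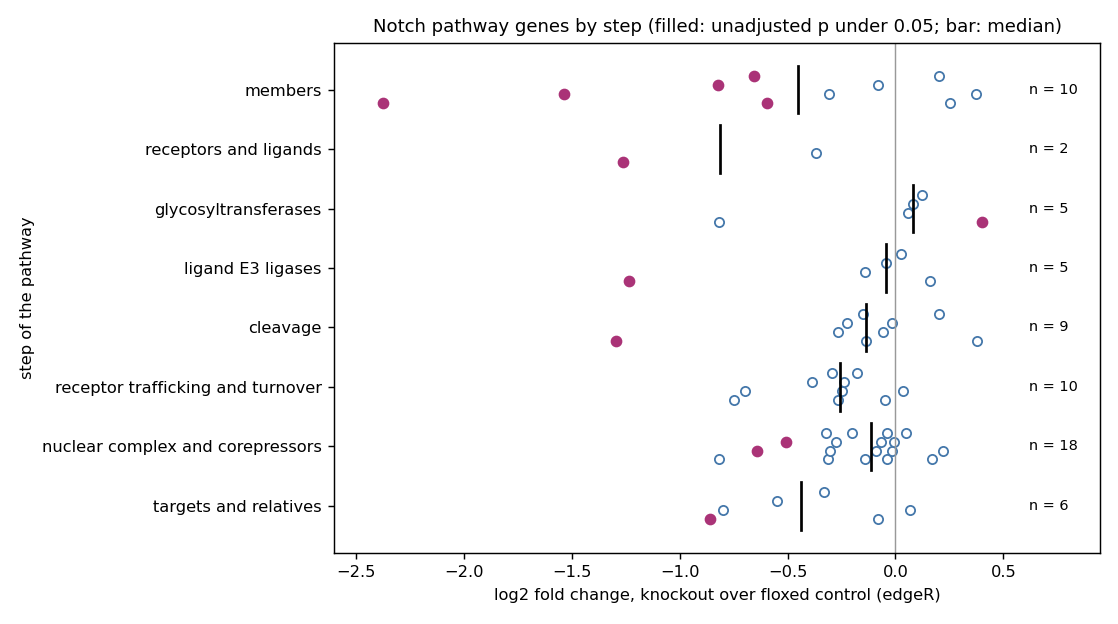
Log2 fold change, knockout over floxed control, by edgeR (x axis) for the 10 members and the 55 other tested Notch pathway genes, set out by step of the pathway (y axis; n is the number of genes tested); filled points have an unadjusted p under 0.05 and black bars are medians. The medians of the cleavage and nuclear complex genes, -0.14 and -0.12, lie nearer 0 than that of the members, -0.45. So do those of the ligand E3 ligases (-0.045), glycosyltransferases (0.081) and trafficking genes (-0.26). The median of the 6 targets and relatives, -0.44, is close to that of the members, and that of the 2 receptors and ligands, -0.82, is lower.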

How the data were processed

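The values are estimated counts (expected counts) per gene, made from the reads of mRNA libraries by the authors and deposited without normalisation; 31.1% to 35.2% per library are not whole numbers. Reads were single-end, 50 bp, from DNBSEQ, per the labels' protocols, and were placed on mm10, per the submitters' processing notes. The sources used here do not give the aligner, counting tool or gene annotation. The design had assumed counts, so values were rounded. edgeR 4.0.16 in R 4.3.3 was used with filterByExpr, TMM, robust glmQLFit and glmQLFTest on all 6 libraries, with Benjamini-Hochberg adjustment over 12943 genes. SE is the log2 fold change divided by the root of F. The test was checked on simulated counts. Alternatives were DESeq2 1.42.0 (no adjusted p for 251 genes), limma-voom (limma 3.58.1), other scaling and filters, a replicate block and each library left out. Leaving out floxed controls 1 and 3, or floxed control 2 and knockout 1, was chosen after the data were seen, as were the clock genes. Members and lists were chosen with earlier results of these data known. Named genes were the 10 members, the 6 other pathway genes with the smallest p, Atoh1, the 3 nearest genes of members with unadjusted p under 0.05 and separate groups, and preset markers, with some results not reported here; Ncstn, Rbpj, Nrarp, Rfng, Notch3, Notch4, Ebf1 and Dbp were added after their values were seen. No pair of libraries of a group agreed within counting noise (chi-square per degree of freedom of at least 24.2). Depth sets the precision of low genes such as Heyl. Reads carried no molecular identifiers.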

Additional observations from a re-analysis of the deposited data

How the results depend on the processing

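Over all genes edgeR called 2, against 342 by DESeq2, 1 by limma-voom, 0 with DESeq2 size factors in edgeR, 0 with TMM without the 50 most abundant genes and 67 without a filter beyond 1 count. Without floxed controls 1 and 3 it called 12 and without floxed control 2 and knockout 1 it called 920. With single libraries left out it ran from 0 to 955, the highest without floxed control 2. The count of members called was 0 in the main test, 3 by DESeq2, 0 to 5 with single libraries left out and 6 without floxed control 2 and knockout 1. Of the other pathway genes 0 were called, against 1 by DESeq2, 0 to 5 with single libraries left out and 4 without floxed control 2 and knockout 1. Members at an unadjusted p under 0.05 numbered 5, 4 to 6 with single libraries left out, and 0 without floxed controls 1 and 3. Notch2 ran from -0.34 to 0.21 on the log2 scale with single libraries left out, and changed sign without floxed control 1 (0.16), without knockout 3 and without floxed controls 1 and 3 (0.0053), and within floxed control 2 and knockout 1 the signs of Notch1 (0.061), Notch2 (0.36), Dll4 (0.15) and Hes1 (-0.16) changed. The cause was not tested. No scaling moved the median of all genes by over 0.1 on the log2 scale, and no test, scaling or filter changed the sign of a member; Heyl did not pass the filter of 1 CPM in 3 libraries.

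Replicate numbers did not pair the libraries: deviations from the group mean had correlations of -0.18, -0.27 and 0.068 for numbers 1, 2 and 3, and floxed control 1 was closest to knockout 2 (0.38). With the replicate number as a block, 39 genes, 0 members and 0 other pathway genes were called.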
